A study of Caenorhabditis elegans with 51 samples.

Results

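The cytosolic ribosomal protein genes were taken as every gene of the deposited tables whose name begins with rpl- or rps-, which gave 76 of the 31383 genes listed. Of these, 45 carried the rpl- prefix of large subunit proteins and 31 the rps- prefix of small subunit proteins. The libraries came from single embryos of the nematode *Caenorhabditis elegans* at about the 100-cell stage, which were taken apart by hand aspiration under a confocal microscope, with fluorescent markers showing which cells to draw off. MS+ libraries (n = 7) held the descendants of the MS blastomere and MS- libraries (n = 7) the remaining cells of the same embryos, all of the genotype pCEH-51::mNG. D+ libraries (n = 7) held the descendants of the D blastomere and D- libraries (n = 7) the remaining cells, in pFKH-2::mNG embryos. C-in (n = 5) held the Cxp descendants, which internalize and form muscle, C-out (n = 5) the Cxa descendants, which stay outside and form epidermis, and C- (n = 5) the remaining cells, in pR02D3.1::mKate2;pHLH-1::mNG embryos. Libraries of 1 series with the same number came from the same embryo, so the 43 accepted libraries represent 19 embryos, and the 3 series differ in strain as well as in the cells taken. The remaining cells are not a single cell type, and each rest-of-embryo library contains most lineages.

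A ribosome is built of a small subunit, which decodes the messenger RNA, and a large subunit, which joins amino acids, and each contains 1 copy of most of its proteins. The proteins are therefore needed in matched amounts, and their messenger RNAs are among the abundant ones in growing animal cells. *C. elegans* embryos inherit ribosomes and messenger RNA from the mother, so RNA measured here can be maternal or newly made, and the libraries do not separate these sources. Products of the genes rla-0, rla-1, rla-2, ubq-2, ubl-1 and rack-1 are also parts of the ribosome, but their names fall outside the rule, and they are described apart.

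The values are read counts per gene and RPKM, which is reads scaled to gene length and to the reads of the library, and a gene over 25 RPKM was called detected. Total gene counts lay between 416394 and 3054633 in the accepted libraries, and the family had between 12225 and 54283 of them. The dissected libraries contained fewer detected genes than the remaining cells of their embryo in 7 of 7 MS embryos, 7 of 7 D embryos, 5 of 5 C-in and 4 of 5 C-out libraries. In C-in the number was 1842 to 2490, against 3946 to 5491 in C-, with no overlap. Where a gene is at 0, as many as 3 counts remain possible by counting error alone, or 0.982 to 7.20 CPM (counts scaled to the library total) depending on the library.

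Some libraries held lineage markers that went against their labels. The library labelled D+ replicate 8 held 7.11 RPKM of the muscle gene hlh-1, 2.42 RPKM of unc-120 and 2.35 RPKM of fkh-2, but 564 RPKM of the epidermal gene elt-3 and 2061 RPKM of R02D3.1, the gene whose promoter marks C cells. The library labelled D+ replicate 4 held 958 RPKM of nos-2, a gene of the germ line precursor. The library labelled C-out replicate 1 had 5330 detected genes, 649 RPKM of the gut gene elt-7 and only 73.9 RPKM of R02D3.1, and the libraries labelled MS+ replicate 3 and MS+ replicate 4 held 1761 and 2950 RPKM of elt-7. MS+ replicate 4 also had the most ceh-51, an MS gene, of the MS+ libraries (2445 RPKM) and 0 RPKM of the gut gene elt-2. MS+ replicate 2 had 8.44 RPKM of ceh-51, where the other MS+ libraries had at least 130 RPKM. It held 469 RPKM of pha-4, also an MS marker, and 73.6 RPKM of the epidermal gene lin-26, and its embryo was kept. The library labelled C-in replicate 4 held 587 RPKM of hlh-1 and 946 RPKM of unc-120, but also 641 RPKM of lin-26 and 312 RPKM of nhr-25, both epidermal genes, where the other C-in libraries had at most 15.6 and 7.54 RPKM, and 14.6 RPKM of the mesodermal gene hnd-1, where they had at least 233 RPKM. C-out replicate 2 was low in lin-26 and nhr-25 (4.62 and 2.18 RPKM) with 792 RPKM of elt-3. No D+ library other than replicate 8 was under 130 RPKM of hlh-1. Main results are given below also without the embryos of these libraries (3 and 4 of MS, 4 and 8 of D, 1 of C, and 1 and 4 of C), a choice made after the data were seen.

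In every embryo of the C series the summed RPKM of the family was higher in C-in than in the C- library, and with all embryos in no other comparison did the libraries of the compared groups stand apart. C-in libraries 1, 2, 4, 5 and 6 summed to 32284, 36629, 46033, 60313 and 43203 RPKM, against 28033, 13338, 29196, 24772 and 20389 RPKM in the C- libraries of the same embryos. The lowest C-in value exceeded the highest C- value, and the difference of mean log2 sums was 0.94 with a pooled SD of 0.41, 1.12 without embryo 1 and 1.27 without embryos 1 and 4. C-out libraries 1, 2, 4, 5 and 6 summed to 17350, 60566, 34468, 44525 and 28006 RPKM, which overlapped the C-in and the C- values. C-out was above C- in 4 of 5 embryos, the exception being the C-out library of embryo 1, and the difference was 0.61 with a pooled SD of 0.58, or 0.93 without embryo 1, 1.16 without embryos 1 and 4, where C-out and C- did not overlap, and 0.21 without embryo 2. C-in was above C-out in 4 of 5 embryos, with a difference of 0.33 and a pooled SD of 0.54, or 0.11 without embryos 1 and 4. With TMM scaling of the libraries, described below, the differences were 1.57 in C-in over C- and 1.5 in C-out over C-. These comparisons of the C series share libraries and are not separate evidence.

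In the MS series the family summed to 17093 RPKM at the lowest, 27004 at the median and 41784 at the highest in MS+, against 14968, 18673 and 44096 RPKM in MS-. MS+ was above MS- in 5 of 7 embryos, but the difference of mean log2 sums (0.34) was smaller than the pooled SD (0.54) and was 0.17 without embryos 3 and 4 and 1.04 with TMM scaling. Embryo 2 gave the highest sum and embryo 3 the lowest in both groups. In the D series the lowest, median and highest sums were 16355, 24354 and 40806 RPKM in D+, against 18778, 23652 and 30876 RPKM in D-. D+ was above D- in 5 of 7 embryos, the difference was 0.09 with a pooled SD of 0.42, and it was -0.07 without embryos 4 and 8, 0.72 with TMM scaling and -0.38 by the median of the members in place of the sum. As a share of all gene counts the family made up between 0.951% and 4.11% over the accepted libraries. In these bulk samples fewer cells of a type and less RNA per cell cannot be told apart, and every value is relative to the library total.

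**Figure D1:**
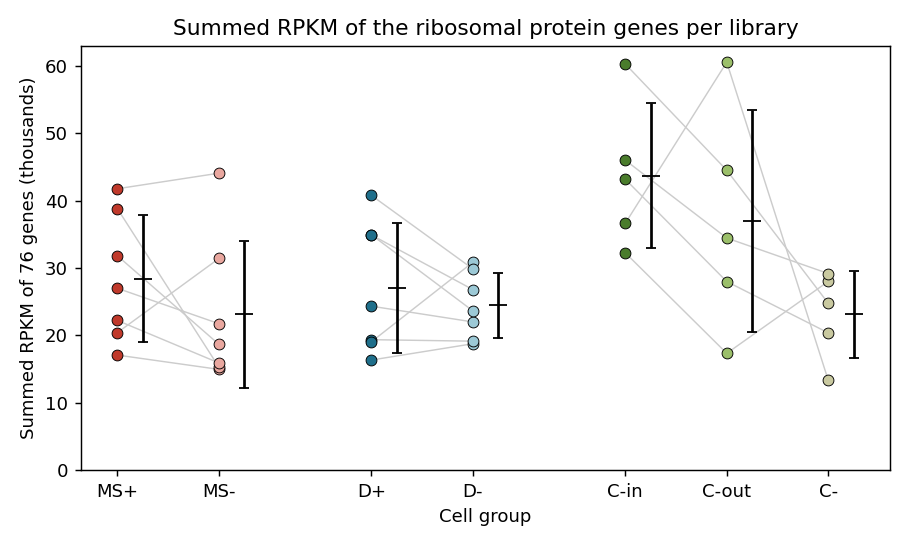
Summed RPKM of the 76 ribosomal protein genes in each accepted library, by cell group. Points are libraries, grey lines join libraries of 1 embryo, and the bar beside each group is its mean with the SD; the 5 C-in libraries all lie above the 5 C- libraries, and the other compared groups overlap.

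Within the family the levels were close together, apart from a few members. The median of the member means over the 43 libraries was 328 RPKM, and 69 of the 76 members had a mean within 2 times of it. rpl-12, which encodes a protein at the base of the ribosomal stalk where translation factors bind, was the most abundant, with a mean of 2505 RPKM and 8.68% of the family sum. It was the highest member in 40 of 43 libraries and never fell under 1041 RPKM. rpl-13, a large subunit gene, followed with 1027 RPKM and was the highest member in the other 3 libraries, but its listed length of 273 bases is 0.41 times the longest transcript of the reference annotation, and with annotated lengths its mean was 422 RPKM and its rank 22 in place of 2. rpl-7A, also of the large subunit, had 650 RPKM and ranked 3 with the listed and 2 with the annotated lengths.

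The lowest members were rpl-42, rpl-11.1 and rpl-37. rpl-42 was at 0 in 41 of 43 libraries and had 1 count to 3 counts in the others, a mean of 0.12 RPKM, and it was the sole member with a mean under 25 RPKM. rpl-11.1 averaged 67.9 RPKM and rpl-37 averaged 78.6 RPKM, both large subunit genes. Reads of rpl-37 cannot be told apart from those of pitp-1, which overlaps it on the other strand, because the use of strand in counting is not given. The same limit holds for other members. In the annotation 14 members overlap a gene on the other strand, among them rpl-7A, rpl-28, rpl-32 and rps-16. Another gene on the same strand overlaps 16 members, among them rpl-5, rpl-23 and rps-12. In all, 26 members were over 25 RPKM in every accepted library, and 50 were at or under 25 RPKM in at least 1.

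**Figure D2:**
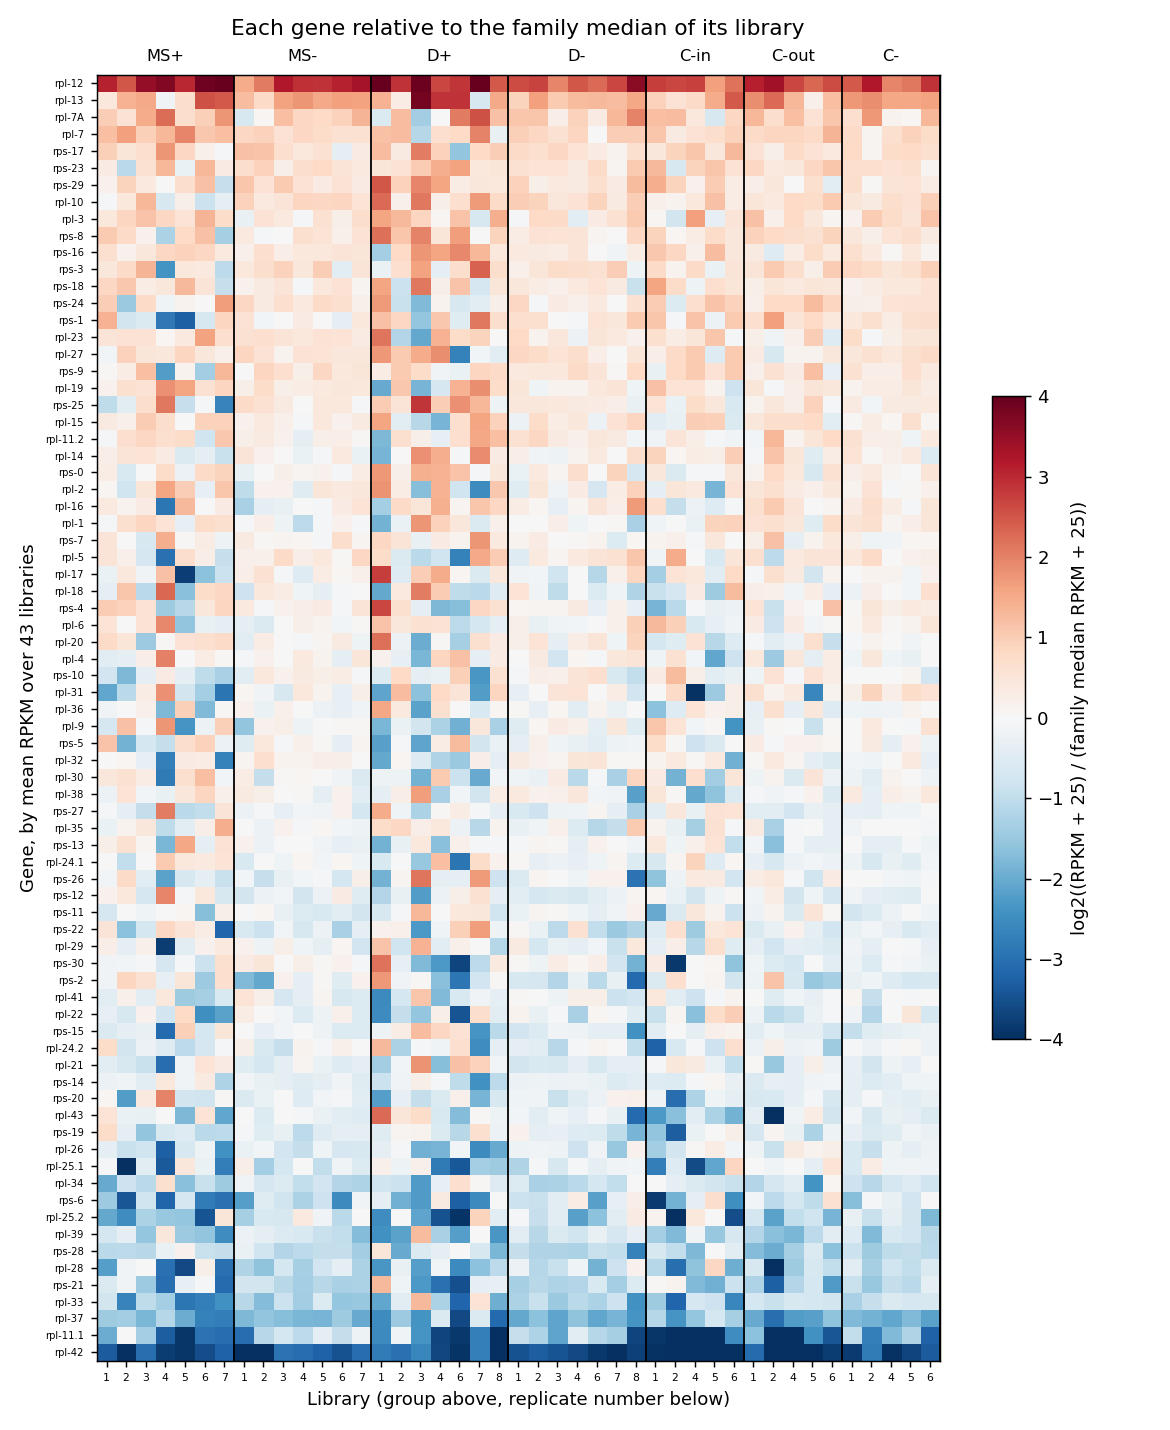
Level of each of the 76 genes in each of the 43 libraries, as log2 of (RPKM + 25) over (family median RPKM of that library + 25), with genes ordered by mean RPKM and libraries grouped by cell group. rpl-12 is red in every column and rpl-42 blue, and the columns of MS+, D+ and C-in are more patchy than those of MS-, D- and C-.

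Members kept their places more closely in the remaining cells of the embryo than in the dissected cells. Correlations of member levels between libraries of 1 group, on log2(RPKM + 25), had a median Pearson r of 0.52 in MS+, against 0.78 in MS-, and of 0.38 in D+, against 0.75 in D- (21 library pairs each, 76 genes). The values were 0.48 in C-in and 0.73 in C-out, against 0.86 in C- (10 pairs each). Without rpl-12 and rpl-42 the medians were lower: 0.40 in MS+ against 0.67 in MS-, and 0.27 in D+ against 0.58 in D-. In the C series they were 0.36 in C-in and 0.64 in C-out, against 0.81 in C-. The libraries of a pair share the gene lengths and base composition of these genes, and genes are not independent replicates. Relative to the family median of its library, a member varied more, by its SD, in MS+ than in MS- for 71 of 76 members, in D+ than in D- for 74, in C-in than in C- for 70 and in C-out than in C- for 60. The median SD was 0.88 on the log2 scale in MS+ against 0.31 in MS-, 1.13 in D+ against 0.43 in D-, and 0.69 in C-in and 0.45 in C-out against 0.23 in C-. These correlations and SDs are given without the same values over all genes, so they are not shown to be particular to the family.

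The steadiest members were rps-7, rps-14 and rps-23, the last of which encodes a protein of the decoding centre, with SDs of 0.45, 0.46 and 0.50 around the family median over all 43 libraries. The least steady were rpl-11.1 (SD 1.39), rpl-25.2 (1.27), rpl-25.1 (1.25), rpl-31 (1.21) and rps-6 (1.2). rps-6 encodes the small subunit protein phosphorylated by S6 kinase, and its level was 4.76, 22.7 and 210 RPKM (lowest, median and highest) in MS+, against 23.6, 85.8 and 372 RPKM in MS-. In C-in it was 2.42, 103, 394, 1184 and 68.3 RPKM, against 83.5, 138, 288, 160 and 219 RPKM in C-. Single C-in libraries were thus both the lowest and the highest of the C series for rps-6, and the groups overlapped. rpl-31, whose protein sits at the exit of the peptide tunnel, ranged from 6.25 to 1215 RPKM in MS+, against 99.3 to 480 RPKM in MS-.

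Low values of single members were concentrated in D+ and MS+ libraries. Of all member values, 8.27% were at or under 25 RPKM in MS+, against 1.5% in MS-, and 13.7% in D+, against 2.07% in D-. The shares were 4.47% in C-in and 2.63% in C-out, against 2.11% in C-. D+ libraries 1, 3, 7 and 6 had 20, 22, 12 and 10 members at or under 25 RPKM, and MS+ libraries 4 and 7 had 14 each, whereas every rest-of-embryo library had between 1 and 5. The D+ library labelled replicate 8 had 2, and without embryos 4 and 8 the D+ libraries had 3 to 22, with a median of 12. These 6 libraries detected 1496 to 2192 genes each, whereas C-in and C-out of embryo 2, with 1842 and 1550 detected genes, had 5 and 4 low members, and the part of the number of detected genes in these low values was not tested. The affected members differed from library to library: of 40 members at or under 25 RPKM in some D+ library, 22 were so in 1 library only, and of 23 in MS+, 13 were so in 1 only. Those low in 3 or more libraries were rpl-11.1, rpl-25.2, rpl-31, rpl-37, rpl-42, rps-21 and rps-6 in D+ and rpl-11.1, rpl-25.1, rpl-28, rpl-42 and rps-6 in MS+. Other genes had low values more often. Among genes over 25 RPKM in every rest-of-embryo library, 6.37% of the values of 74 members were at or under 25 RPKM in MS+, against 31.8% of those of 1758 other genes, and in D+ the shares were 11.9% for 71 members and 32.4% for 1067 other genes. The members also had higher levels there, with a median mean of 276 RPKM in MS-, against 159 RPKM for the other genes, and 294 RPKM in D-, against 213 RPKM.

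**Figure D3:**
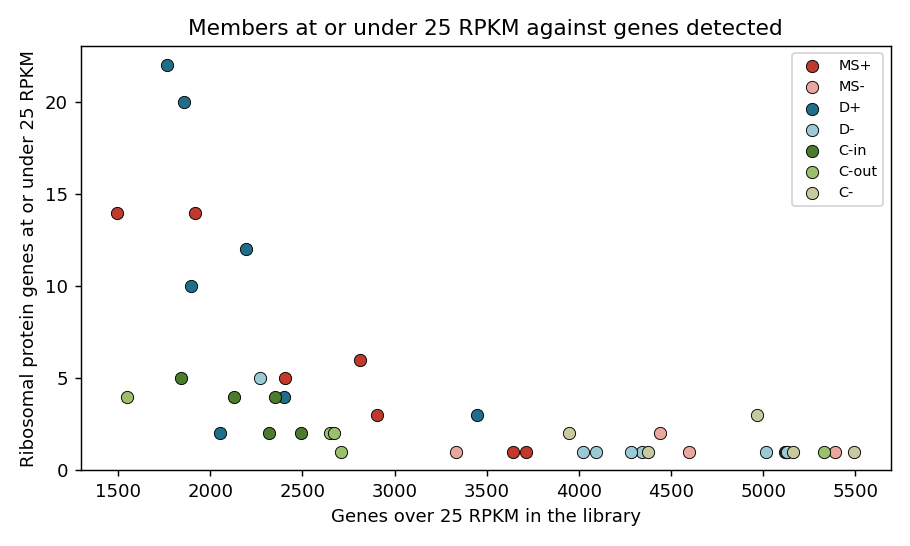
Number of the 76 genes at or under 25 RPKM against the number of all genes over 25 RPKM, 1 point per accepted library, coloured by cell group. Libraries with 10 or more low members all belong to D+ and MS+ and detected 1496 to 2192 genes, while no C-in or C-out library has more than 5.

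Each comparison was then tested gene by gene with edgeR's quasi-likelihood test across all genes that passed a filter of more than 25 RPKM in as many libraries as the smaller group has. How the libraries were scaled moved the median over all genes tested. With TMM scaling, which trims extreme genes, this log2 fold change was 0.57 in MS+ over MS-, 0.64 in D+ over D-, 0.25 in C-in over C-out, 0.65 in C-in over C- and 0.33 in C-out over C-, and with the library total alone it was -0.06, -0.01, 0.33, 0.02 and -0.37 in this order. The median over the members is therefore given beside the median over all genes in each case.

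In C-in over C-, rpl-12 rose, and it was the sole member to pass the adjusted threshold of 0.05 among 74 tested, where 1.34% of the 3572 genes tested rose and 6.44% changed. rpl-12 had 2631, 3030, 3713, 2315 and 2300 RPKM in C-in libraries 1, 2, 4, 5 and 6, against 1907, 1589, 1481, 1331 and 1844 RPKM in C-. Every C-in value was above every C- value, and the log2 fold change was 1.44 with an SE of 0.38 (edgeR, adjusted p = 0.032, between 0.0083 and 0.37 over the alternatives). The adjusted p was 0.093 with the embryo as a block, 0.053 without embryo 2 and 0.18 without embryo 4, so the call depends on either embryo. It was 0.040 without embryo 1, and without embryos 1 and 4 the log2 fold change was 1.31 and the adjusted p 0.18, with 0 of 3819 genes called. With the library total alone in place of TMM the log2 fold change was 0.77 and the adjusted p 0.20.

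None of the other 73 members passed the adjusted threshold with edgeR. All 74 members had a positive log2 fold change, with a median of 1.59 against 0.65 for all genes, and 37 of them had an unadjusted p under 0.05, where 17.5% of all genes did. Without embryos 1 and 4 the median was 1.94, against 0.44 for all genes, and 17 members had such a p, where 21.3% of all genes did. DESeq2 called 62 members higher, where it called 18.3% of all genes higher, and limma on log2(RPKM + 25) called rpl-12 alone, where it called 12% of all genes. With DESeq2's size factors in edgeR 12 members were called higher, where 3.95% of all genes were. With the library total alone the median was 0.96, against 0.02 for all genes, and 71 of 74 were positive. The C-in and C- values did not overlap for 7 of 74 members, all higher in C-in (rpl-12, rpl-34, rps-7, rps-10, rps-12, rps-16 and rps-29), where 1.37% of all genes were so and 9.04% were lower in C-in without overlap. Without embryo 1 the number was 21, where 3.22% of all genes were so, and without embryos 1 and 4 it was 38, where 5.96% were. rps-16, a small subunit gene whose protein reaches toward the site of the transfer RNA, had 785, 816, 614, 1726 and 682 RPKM in C-in, against 535, 204, 380, 395 and 245 RPKM in C-. rps-29 had 1035, 856, 596, 1488 and 611 RPKM in C-in, against 548, 154, 531, 437 and 283 RPKM in C-. In both genes the C-in library of embryo 5 was the highest and the C- library of embryo 2 the lowest. rpl-34 had 355, 344, 349, 421 and 252 RPKM in C-in, against 174, 56.3, 218, 196 and 118 RPKM in C-.

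Among the tested members the highest log2 fold changes in C-in over C- were 2.41 for rpl-37, 2.13 for rps-2 and 2.09 for rps-22 (edgeR, adjusted p = 0.18, 0.090 and 0.20). rpl-37 had 149, 67.7, 164, 435 and 179 RPKM in C-in, against 80.3, 21.96, 67.4, 68.4 and 31.9 RPKM in C-. It was 1 of 25 members, of 74 tested, that were higher in C-in in 5 of 5 embryos. rps-2, a small subunit gene whose protein lines the entry of the messenger RNA, had 234, 740, 538, 770 and 283 RPKM in C-in, against 264, 128, 244, 172 and 135 RPKM in C-. Its value in embryo 1 was below that of C-. Markers went both ways in the same libraries, with 2 called higher and 1 lower of 8 tested (hlh-1, pal-1 and unc-120). hlh-1 was at 249 to 1148 RPKM in C-in, against 48.5 to 218 RPKM in C-, and elt-3 did not exceed 6.62 RPKM in C-in. pal-1, taken as a marker of C cells, did not exceed 6.4 RPKM in C-in. R02D3.1 was at 17.6 and 28.1 RPKM in C-in of embryos 4 and 5, against 243 to 798 RPKM in the other C-in libraries. lin-26 and nhr-25 were high in C-in of embryo 4, as given above. Fewer genes were detected in every C-in library than in any C- library, as given above, and the part of this in the higher family values was not tested.

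In C-out over C- no member of 75 passed the adjusted threshold, where 0 of 4079 genes tested passed it (0%). The median member had a log2 fold change of 2.19, against 0.33 for all genes, 74 of 75 were positive, and 47 had an unadjusted p under 0.05, where 15.8% of all genes did. DESeq2 called 53 members higher, where it called 11% of all genes higher, but it gave no adjusted p for some members, among them rpl-12, rps-1, rps-2 and rps-7. limma on log2(RPKM + 25) called 0 members, where it called 0.686% of all genes. The edgeR values rested on embryos 2 and 6: the count at an unadjusted p under 0.05 was 2 without embryo 2, with a median of 0.82, and 3 without embryo 6, with a median of 1.23. The share of all genes with such a p was also lower there, 6.93% without embryo 2 and 6.47% without embryo 6. The C-out and C- values overlapped for every member, where 0.392% of all genes were higher and 2.55% lower without overlap, and without embryo 1 they did not for 17 of 75, all higher in C-out, where 3.02% of all genes were so, and without embryos 1 and 4 for 31, where 4.9% were. rps-2 had the highest log2 fold change, 3.41, with 161, 1479, 249, 171 and 114 RPKM in C-out, against 264, 128, 244, 172 and 135 RPKM in C-. A single library, C-out of embryo 2, was far above the rest. The same library was the highest of the C-out group for rps-7 (1506 RPKM, fold change 3.04) and rps-1 (2092 RPKM, fold change 3.01 on the log2 scale), which were next in order. rpl-12 had 1821, 6902, 2711, 2676 and 2113 RPKM in C-out, where embryo 2 was again the highest. rpl-11.1 was the sole member with a negative log2 fold change (-0.92).

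Between the C cells, in C-in over C-out, no member of 74 passed the adjusted threshold, where 5.66% of the 2208 genes tested did. No member had an unadjusted p under 0.05, where 14.4% of all genes did, DESeq2 called 0 members, where it called 6.07% of all genes higher, and limma called 0, where it called 7.61%. The median member had a log2 fold change of 0.02, against 0.25 for all genes, and 39 of 74 were positive. With the library total alone the median was 0.25, against 0.33, and without embryo 2 the TMM median was 0.61. The values overlapped for every member, where 2.45% of all genes were higher and 5.03% lower in C-in without overlap. Without embryo 1 rps-17 alone was higher without overlap, where 5.3% of all genes were, and without embryos 1 and 4 it was 4 of 74, where 9.96% were. The highest were rpl-37 (1.36), rps-21 (1.27) and rpl-28 (1.09), and rpl-37 was higher in C-in in 5 of 5 embryos, with 27.6, 59.7, 66.6, 97.6 and 91.2 RPKM in C-out. The lowest were rpl-16 (-0.76), rpl-25.1 (-0.70) and rpl-11.2 (-0.63), and for rpl-16 and rpl-11.2 the sign turned without embryo 2. rpl-16 had 594, 222, 452, 496 and 474 RPKM in C-in, against 305, 1388, 595, 531 and 351 RPKM in C-out, with the C-out library of embryo 2 the highest. In these libraries hlh-1 and unc-120, genes of muscle, rose and elt-3, a gene of epidermis, fell in C-in (log2 fold changes of 4.37, 4.62 and -7.81), but lin-26, also of epidermis, was not called (-1.67, edgeR, adjusted p = 0.65).

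In MS+ over MS- no member of 75 passed the adjusted threshold, where 0.322% of the 3730 genes tested did. There were 13 members with an unadjusted p under 0.05, all higher, where 12.3% of all genes had one, and without embryos 3 and 4 the count was 1, where 5.93% of all genes had such a p. The ranges of all members overlapped, where 0.107% of all genes were higher and 0.831% lower in MS+ without overlap. DESeq2 called 15 members higher, where it called 11.5% of all genes higher, but it gave no adjusted p for some members, among them rps-12, rps-6, rpl-26 and rpl-32. limma on log2(RPKM + 25) called 0, where it called 3.03%, and on log2(RPKM + 1) it called 1, rpl-12, where it called 6.14%. The median log2 fold change was 0.87, against 0.57 for all genes, and 70 of 75 were positive, but with the library total alone the median was 0.19, against -0.06, and 49 were positive. rpl-12 had the lowest p. Its level was 2081, 3026 and 4515 RPKM (lowest, median and highest) in MS+, against 1147, 1745 and 2366 RPKM in MS-, and it was higher in all 7 embryos. This was a log2 fold change of 1.70 with an SE of 0.42 (edgeR, adjusted p = 0.11), and 1.08 without embryos 3 and 4. rpl-7A was also higher in 7 of 7 embryos, with a mean of 750 ± 402 RPKM in MS+ and 425 ± 111 RPKM in MS- (SD, n = 7 each). The highest fold changes were those of rpl-18 (2.05), rps-12 (2.0) and rps-2 (1.93). rps-12 reached 1313 RPKM in MS+ of embryo 4, with a median of 336 in MS+ and 172 in MS-, and without embryos 3 and 4 its fold change was 0.59. The lowest were rps-6 (-0.61), rpl-26 (-0.12) and rpl-32 (-0.11), of which rpl-32 changed sign to 0.00 with DESeq2's size factors.

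In D+ over D- no member of 75 passed the adjusted threshold either, where 0.296% of the 3039 genes tested did. Only rpl-12 had an unadjusted p under 0.05, where 8.03% of all genes had one. DESeq2 called 18 members higher, where it called 13.6% of all genes higher, and limma called 0, where it called 0.724%. The ranges of all members overlapped, where 0% of all genes were higher and 0.559% lower in D+ without overlap. Without embryos 4 and 8, rpl-32 and rps-14 were lower in D+ without overlap, where 5.76% of all genes were so. The median log2 fold change was 0.82, against 0.64 for all genes, with 67 of 75 positive, and 0.10, against -0.01, with the library total alone, with 46 positive. rpl-12 had 1444, 2672 and 4040 RPKM in D+, against 1041, 1699 and 3984 RPKM in D-, where the highest D- value was that of embryo 8. Its log2 fold change was 0.97 with an SE of 0.46 (edgeR, adjusted p = 0.61), and 1.52 without embryos 4 and 8. rpl-13 (1.66), rps-25 (1.60) and rps-16 (1.56) had the highest fold changes and rpl-11.1 (-2.04), rpl-9 (-0.75) and rpl-32 (-0.58) the lowest, of which rpl-9 and rpl-32 turned to 0.00 and 0.20 with DESeq2's size factors. rpl-9, a large subunit gene, was lower in D+ in 7 of 7 embryos by RPKM, with 23.9, 124 and 202 RPKM (lowest, median and highest) in D+, against 176, 258 and 536 RPKM in D-, though its ranges overlapped. A test of whether the MS and D differences differ found 0 of 75 members past the adjusted threshold and 0 with an unadjusted p under 0.05, where 1.06% and 14.9% of 5304 genes were so (edgeR).

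**Figure D4:**
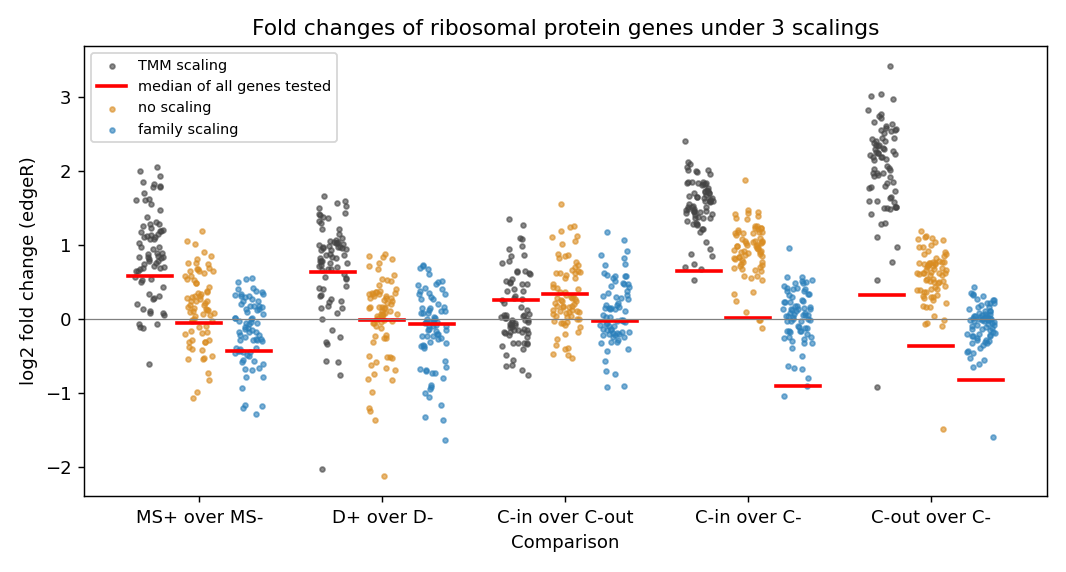
Log2 fold changes of the tested ribosomal protein genes (74 or 75 points) in the 5 comparisons with edgeR, under TMM scaling, the library total alone and a scaling to the family itself, with the median of all genes tested as a red bar. In C-in over C- and C-out over C- most points lie above the red bar under each scaling, and in the other comparisons they lie closer around it.

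Members that depart from the family were looked for by scaling each library to the summed counts of the 76 genes, so that a fold change is relative to the family. Each member is itself part of that sum, which draws its own fold change toward 0, most of all for rpl-12. In MS+ replicate 7 rpl-12 had 6900 of the 27001 family counts. Its log2 fold change in MS+ over MS- was 1.70 with TMM scaling and 0.41 with this scaling. No member passed the adjusted threshold in any of the 5 comparisons, and none had an unadjusted p under 0.05. The fit had low sensitivity on simulated counts in which 200 genes were changed by a log2 fold of 2 or 3 in either direction. It called 33 of the 200 in MS+ over MS-, 6 in D+ over D- and 19 in C-in over C-out. Departures of members of that size could therefore have gone uncalled. Under the same scaling 0.375% of all genes tested passed the adjusted threshold in MS+ over MS-, 0.197% in D+ over D-, 4.98% in C-in over C-out, 8.01% in C-in over C- and 0% in C-out over C-. The shares with an unadjusted p under 0.05 were 4.42%, 4.41%, 10.5%, 18.6% and 3.85% in this order. The lowest unadjusted p of a member was 0.10 in MS+ over MS-, 0.13 in D+ over D-, 0.25 in C-in over C-out, 0.22 in C-in over C- and 0.30 in C-out over C-. In C-in over C- the log2 fold change relative to the family lay between -1.05 (rpl-43) and 0.96 (rpl-37).

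rpl-11.1 had the largest departure by values, though not by the test. It is 1 of 2 genes for a protein that holds the small 5S RNA of the large subunit, and the other, rpl-11.2, was near the family median. rpl-11.1 was at or under 25 RPKM in 20 of 43 libraries and at 0 in 5. In D+ libraries 1, 2, 3, 4, 6, 7 and 8 it had 5.24, 153, 4.67, 3.52, 1.19, 0 and 0 RPKM, against 125, 79.6, 38.3, 207, 140, 136 and 0.84 RPKM in D-. In D+, 6 of 7 libraries were under every D- library but that of embryo 8. In MS+ libraries 1 to 7 it had 37.8, 484, 53.98, 10.2, 0, 13.1 and 3.69 RPKM, against 25.8, 237, 93.0, 74.6, 153, 119 and 154 RPKM in MS-. Embryo 2 was the highest in both MS groups. C-in libraries 1, 2, 4, 5 and 6 had 1.09, 0, 0, 7.06 and 67.0 RPKM and C-out libraries 43.1, 1.22, 1.70, 78.5 and 7.81 RPKM, against 154, 1.01, 90.0, 113 and 1.59 RPKM in C-. The C- libraries split into values of 90.0 RPKM or more and values under 2 RPKM, the low ones in embryos 2 and 6. rpl-11.1 did not pass the filter in C-in over C-, and its log2 fold change was -2.04 in D+ over D- and -0.92 in C-out over C- (edgeR, adjusted p = 0.68 and 0.75).

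**Figure D5:**
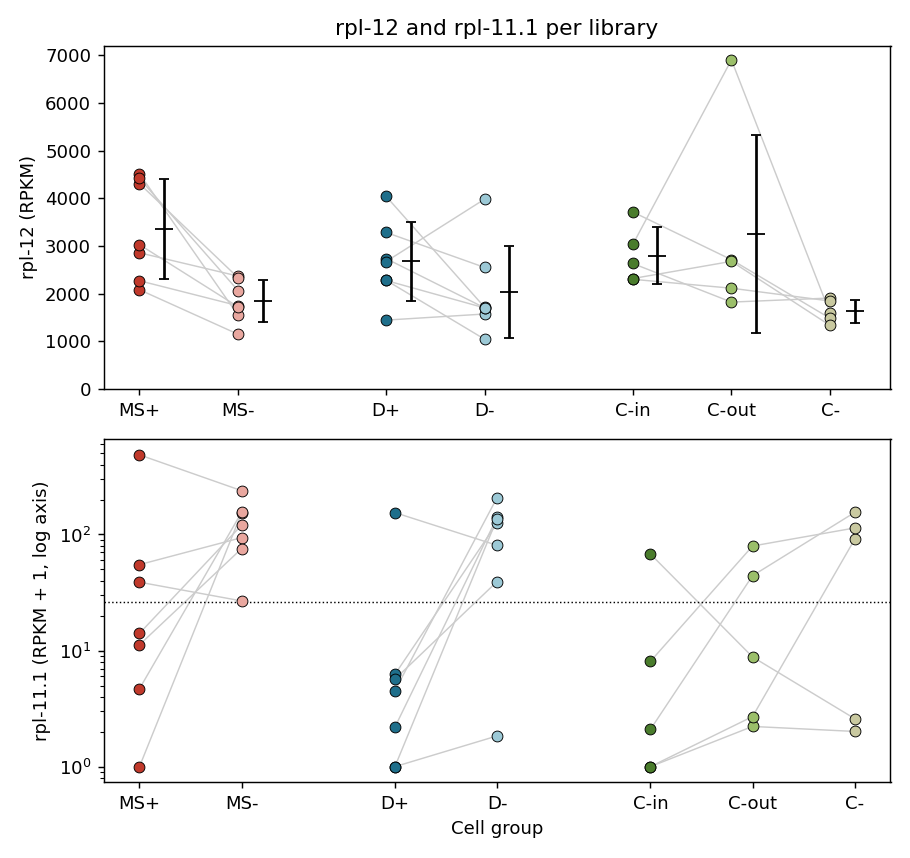
RPKM of rpl-12 (top, linear axis) and RPKM + 1 of rpl-11.1 (bottom, log axis, dotted line at 25 RPKM) in each accepted library, by cell group. Grey lines join libraries of 1 embryo and the bars on top are means with SDs; rpl-12 is higher in MS+ than in MS- in 7 of 7 embryos and in C-in than in C- in 5 of 5, and rpl-11.1 runs from 0 to 484 RPKM.

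The sister gene rpl-11.2 was over 25 RPKM in every library, with 143 to 793 RPKM in MS+ against 132 to 700 RPKM in MS-, 25.09 to 1092 RPKM in D+ against 281 to 496 RPKM in D-, and a mean of 442 RPKM over the 43 libraries. The pair rpl-25.1 and rpl-25.2, which RefSeq lists as rpl-23A.1 and rpl-23A.2, encodes a protein at the exit of the peptide tunnel. rpl-25.1 had 31.3, 307, 21.1, 152 and 906 RPKM in C-in and 184, 588, 408, 401 and 484 RPKM in C-out, against 210, 189, 323, 262 and 202 RPKM in C-. rpl-25.2 had 404, 1.28, 723, 709 and 18.8 RPKM in C-in and 106, 128, 195, 292 and 72.0 RPKM in C-out, against 262, 68.2, 280, 164 and 46.6 RPKM in C-. In C-in, libraries 1, 4 and 5 were high for rpl-25.2 and low for rpl-25.1, and libraries 2 and 6 the other way round, and this was not tested. rpl-24.1 and rpl-24.2 averaged 546 ± 283 and 397 ± 283 RPKM in C-in and 333 ± 134 and 373 ± 273 RPKM in C-out, against 214 ± 83.4 and 253 ± 93.3 RPKM in C- (SD, n = 5 each). RefSeq lists rpl-24.2 as rsl-24D1, whose yeast counterpart acts in the assembly of the large subunit. Whether reads were split between near-identical copies is not given in the sources used here, so values of these pairs are uncertain to that extent.

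The members rpl-5, rpl-23, rps-12, rps-13, rps-21 and rps-29 stand in a list of genes enriched in internalizing cells that the study chose on these libraries, so their values are no independent evidence. rpl-5, which binds the 5S RNA with rpl-11, had 328, 1302, 520, 462 and 689 RPKM in C-in, against 454, 269, 365, 331 and 270 RPKM in C-, with embryo 1 the other way round from the rest. rps-21 had 371, 504, 139, 171 and 255 RPKM in C-in, against 168, 35.3, 176, 124 and 167 RPKM in C-, where embryo 4 went the other way. None of the 6 passed the adjusted threshold in any comparison with edgeR.

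Few other genes of translation passed the test. For these lists the medians over all genes tested with TMM scaling, given above, apply as well. The 6 ribosomal proteins with other names (rla-0, rla-1, rla-2, ubq-2, ubl-1 and rack-1) had a median log2 fold change of 1.48 in C-in over C- and 2.16 in C-out over C-. Their median was 0.44 in MS+ over MS-, 0.96 in D+ over D- and 0.0064 in C-in over C-out. In each comparison 0 of 6 were called in either direction. The 6 elongation factor genes measured had medians of 1.37 in MS+ over MS-, 0.72 in D+ over D-, -0.43 in C-in over C-out, 1.08 in C-in over C- and 2.13 in C-out over C-, and 0 were called. eef-1G, a subunit of the factor that reloads eEF1A, averaged 2772 RPKM in MS+, against 1448 RPKM in MS-. Of 23 initiation factor genes, between 16 and 21 were tested in a comparison and 0 were called. Of 17 genes of ribosome assembly and RNA polymerase I, 15 were tested in C-in over C-, and fib-1, which encodes the nucleolar methyltransferase fibrillarin, rose (log2 fold change 2.32, edgeR, adjusted p = 0.018). fib-1 lay between 806 and 2052 RPKM in C-in, against 302 to 607 RPKM in C-, without overlap. Of all genes tested in this comparison, 1.34% were called higher. Without embryos 1 and 4 no gene was called in it, as given above, so the fib-1 call was lost there too. No other gene of that list was called in any comparison. The 2 mitochondrial ribosomal protein genes found by name had medians of opposite sign in MS+ over MS- (0.84) and D+ over D- (-1.68), and neither was called.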

How the data were processed

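The authors dissected single embryos, lysed the cells without RNA extraction, made cDNA from polyA RNA with the SMARTer Ultra Low kit and prepared libraries with Nextera XT. They deposited 1 table per library with read counts per gene, a gene length and RPKM values. The deposited counts are whole numbers and not normalized. RPKM in the deposited tables is the authors' scaling of these counts to listed length and library total. The submitters' processing notes name the build ce10 and bedtools, while aligner, counting program and strand setting are not given there. Read coverage tracks were not used here.

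Groups came from the sample labels, and 8 libraries of 3 embryos rejected by the authors for spike-in content were left out of all comparisons. Total gene counts lay between 416394 and 3054633. Counts were compared with edgeR 4.0.16 (TMM, quasi-likelihood test, Benjamini-Hochberg adjustment over all genes tested, threshold 0.05) in R 4.3.3, with DESeq2 1.42.0 and limma 3.58.1 as alternatives. Only the groups compared entered each fit. Genes were tested if over 25 RPKM in at least 7 libraries (5 in the C series). A second fit scaled libraries to the summed family counts. Libraries of 1 embryo share a number, which was used as a block in an alternative; deviations from the group means correlated by 0.03 on average between MS+ and MS- of the same embryo, 0.02 between D+ and D-, and 0.05 between C-in and C-. Separate embryos of 1 strain are the replicates.

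Members named are those called, the 3 highest and 3 lowest by mean RPKM, the 3 largest rises and falls per comparison, the 5 least and 3 most steady, numbered pairs and 6 genes listed in the study. The family, the lists and these rules were chosen with earlier results of these data known. Gene names were matched to Ensembl WBcel235 (75 of 76, all but rpl-41). Annotated transcript lengths and overlaps with other genes were read from the annotation, and the counts stayed those of the deposited tables. Settings tried were other scalings, tools, filters, pseudocounts of 25 and 1, gene lengths, the block and leaving out embryos. Scripts were tested on simulated counts. Figures used Python 3.11.15 with matplotlib 3.10.9.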

Additional observations from a re-analysis of the deposited data

Results flagged for a closer look

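Single libraries stood far from the rest of their group in 8 of 49 sets of values examined. The sets include genes named for their large spread in these same libraries, so this number cannot be set against a chance rate. rpl-11.1 was high in MS+ replicate 2 (484 RPKM), D+ replicate 2 (153 RPKM) and C-in replicate 6 (67.0 RPKM). rpl-12 was high in C-out replicate 2 (6902 RPKM), rpl-25.2 in MS+ replicate 7 (308 RPKM) and rpl-25.1 in MS- replicate 1 (479 RPKM). The number of members at or under 25 RPKM was high in MS- replicate 6 (2) and D- replicate 8 (5).

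The 8 rejected libraries were in no comparison. The family sum of 7 of them lay above every accepted rest-of-embryo library of their series: 37420 RPKM in D+ replicate 5 and 32179 RPKM in D- replicate 5, where D- ended at 30876 RPKM, and 35814 and 71673 RPKM in C-in replicates 3 and 7, 82400 and 90702 RPKM in C-out replicates 3 and 7 and 75738 RPKM in C- replicate 7, where C- ended at 29196 RPKM. C- replicate 3, with 19905 RPKM, lay within the range of the accepted C- libraries. Against the accepted libraries of their own group, D+ replicate 5 lay within the range (16355 to 40806 RPKM), as did C-in replicate 3 (32284 to 60313 RPKM). D- replicate 5, C-in replicate 7, C-out replicates 3 and 7 and C- replicate 7 lay above the range of their own group. D+ replicate 5 had a total gene count of 52475, C-in replicate 3 of 103134 and C-in replicate 7 of 185530.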

How the results depend on the processing

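The number of members departing from the family was 0 under every setting run, in a fit whose low sensitivity is given above. The number called changed with the tool: DESeq2 called 15 members in MS+ over MS-, 18 in D+ over D-, 62 in C-in over C- and 53 in C-out over C-, all higher, and 0 in C-in over C-out. It gave no adjusted p for some members in MS+ over MS- and C-out over C- and for rps-7 in C-in over C-out. limma on log2(RPKM + 1) called 1 in MS+ over MS-. In C-in over C- edgeR with DESeq2's size factors called 12, where 3.95% of all genes were called higher, and 0 were called with no scaling, no filter beyond 1 count, the replicate block, all 7 groups in a single fit or without embryos of low detection (fewer than 2000 genes over 25 RPKM in a dissected library) or without embryos 1 and 4; leaving out 1 embryo gave 0 to 1. The replicate block changed no other call. The family sum difference with TMM scaling was 1.04 in MS+ over MS-, 0.72 in D+ over D-, 1.57 in C-in over C- and 1.5 in C-out over C- on the log2 scale, and by the median of the members it was -0.38 in D+ over D-. Leaving out 1 embryo gave 0.18 to 0.50, 0.02 to 0.23, 0.19 to 0.59, 0.81 to 1.12 and 0.21 to 0.93 in the order MS, D, C-in over C-out, C-in over C- and C-out over C-. Without replicate 2, which is the set without low-detection embryos, fold changes in C-in over C-out turned to 0.084 for rpl-11.2, 0.24 for rpl-12 and 0.16 for rpl-16, and leaving out 1 embryo gave -0.87 to 0.084, -0.67 to 0.24 and -1.21 to 0.16 for these genes. With DESeq2's size factors in edgeR those of rpl-32 were 0.20 in D+ over D- and 0.0030 in MS+ over MS-, that of rpl-9 was 0.00093 in D+ over D-, and DESeq2 gave 0.20 and 0.0056 for rpl-32. The causes were not tested. Over 30 named fold changes and 489 alternatives, 459 kept direction and call, 11 gained a call (9 with DESeq2), 8 lost it (all rpl-12 in C-in over C-) and 11 turned. The settings without embryos 1 and 4 leave 3 embryos a group.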

Other observations

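RefSeq lists 4 genes that the rule by name left out as ribosomal proteins, and they were looked up after the files were seen: Y37E3.8 (rpl-27A), F54D7.6 (rpl-41.1), F54D7.7 (rpl-41.2) and W01D2.1 (rpl-37.1). They averaged 962, 789, 705 and 439 RPKM in C-in, against 512, 257, 372 and 156 RPKM in C-, and their median log2 fold change there was 1.79, against 1.59 for the family members tested, with 0 of 4 called by edgeR and 2 at an unadjusted p under 0.05. W01D2.1 was more abundant than rpl-37 in every group mean, for instance 439 against 199 RPKM in C-in.

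Ribosomal protein genes of the small subunit made up 41.5 ± 3.52% of the family sum in C-in and 39.3 ± 2.86% in C-out, against 37.8 ± 2.18% in C- (SD, n = 5 each). In MS+ the share was 35.96 ± 4.28%, against 38.3 ± 2.63% in MS-, and in D+ it was 39.1 ± 2.28%, against 37.7 ± 3.91% in D- (SD, n = 7 each), and these differences were not tested.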
